A study of Mus musculus with 12 samples.

Results

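The guanylate-binding proteins examined here are Gbp2, Gbp2b, Gbp3, Gbp6 and Gbp7, 5 of the 13319 genes named in the platform annotation. Every probe set annotated to 1 of these genes was taken, also where the annotation lists several genes, which gave 7 of 22626 probe sets, and 0 of these 7 listed a further gene. Gbp2 and Gbp7 had 2 probe sets each and the other 3 genes had 1 each, and all 7 were tested with no filter on low values. Total brain lysate of adult mice, housed free of specific pathogens and given no treatment, was hybridised to Affymetrix 3' expression arrays, 1 array per sample and 3 per genotype. The genotypes were the double knockout of Usp18 and Ifnar1 (USP18ko:IFNARko), the knockout of Usp18 (USP18ko), the knockout of Ifnar1 (IFNARko) and wild type (WT). The labels used here give no strain, sex or batch. Nothing there states that replicates are different animals, so a p-value here speaks of differences among arrays whose spread may be technical alone.

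Guanylate-binding proteins are large GTPases of the dynamin superfamily that interferons induce in many cell types. They bind to membranes around intracellular pathogens and are loaded there together with the immunity-related GTPases. Gbp2 and Gbp2b (once called Gbp1) end in a CaaX motif, a site for attachment of a lipid anchor. In mouse macrophages Gbp6 and Gbp7 contribute to resistance against intracellular bacteria, and Gbp7 also acts together with the phagocyte oxidase. Their induction runs through 2 kinds of promoter element. The interferon-stimulated response element (ISRE) is bound by interferon regulatory factors and responds to the type I interferon receptor, of which Ifnar1 is a chain. The gamma-activated site (GAS) is the element of the response to interferon-gamma. USP18 removes ISG15 from proteins and restrains signalling at the type I receptor.

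The genes lie in 2 places of the mouse genome. In the RefSeq annotation of GRCm38.p6, Gbp7 (chr3:142530336-142550151), Gbp3 (chr3:142560016-142573213), Gbp2b (chr3:142594816-142619179) and Gbp2 (chr3:142620663-142638008) are neighbours on chromosome 3, and Gbp6 (chr5:105270702-105295871) lies on chromosome 5. The promoters of the 4 genes with an entry are shown because all 4 rose in USP18ko brain, as did Gbp6. Each covers 300 bases of the plus strand, from RefSeq. Capitals mark matches to the ISRE letters, searched on both strands as GAAA, any 2 bases and GAAA, which read TTTC, any 2 bases and TTTC on the other strand.
Gbp2 (chr3:142620413-142620712): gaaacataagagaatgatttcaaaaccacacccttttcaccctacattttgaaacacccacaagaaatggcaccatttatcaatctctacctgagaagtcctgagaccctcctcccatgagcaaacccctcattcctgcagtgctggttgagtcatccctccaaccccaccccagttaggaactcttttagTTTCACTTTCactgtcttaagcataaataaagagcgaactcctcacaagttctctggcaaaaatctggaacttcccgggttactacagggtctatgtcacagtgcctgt
Gbp2b (chr3:142594597-142594896): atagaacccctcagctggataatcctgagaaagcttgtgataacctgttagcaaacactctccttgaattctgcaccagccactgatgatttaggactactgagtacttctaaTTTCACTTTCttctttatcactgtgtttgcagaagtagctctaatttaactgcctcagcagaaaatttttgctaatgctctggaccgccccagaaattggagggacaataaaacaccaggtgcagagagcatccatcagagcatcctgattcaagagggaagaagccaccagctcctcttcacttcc
Gbp3 (chr3:142559794-142560093): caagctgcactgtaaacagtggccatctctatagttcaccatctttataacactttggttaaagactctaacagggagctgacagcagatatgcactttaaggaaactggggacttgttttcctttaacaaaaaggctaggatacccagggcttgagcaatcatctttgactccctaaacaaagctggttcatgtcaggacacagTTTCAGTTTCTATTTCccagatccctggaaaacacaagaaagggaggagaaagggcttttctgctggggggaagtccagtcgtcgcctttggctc
Gbp7 (chr3:142530086-142530385): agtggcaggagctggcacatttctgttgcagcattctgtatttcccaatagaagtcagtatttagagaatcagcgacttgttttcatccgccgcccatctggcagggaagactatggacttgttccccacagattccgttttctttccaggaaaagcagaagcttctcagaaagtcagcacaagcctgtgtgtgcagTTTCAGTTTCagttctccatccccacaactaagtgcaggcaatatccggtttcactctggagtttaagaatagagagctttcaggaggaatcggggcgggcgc
Of the 5 Gbp genes, 4 had promoter entries, and 4 of these 4 held an ISRE match, against 3.99% of 27025 genes with windows of the same length. Gbp3 had a further window, at a later start, which held 0 matches, and its first window held 2 matches that overlap each other. The GAS letters TTCNNNGAA, which read the same on both strands, matched in 1 of the 4 genes, Gbp7, at bases 145 to 153 and 164 to 172 of its window, against 9.55% of genes. No ISRE match overlapped a GAS match in these windows. A match describes the letters and does not show that a factor binds. The 4 genes are neighbours of 1 family, so their windows need not be independent of each other.

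Several arrays stood apart. In IFNARko replicate 1 the 3' probe set of beta-actin exceeded the 5' one by 1.48 on the log2 scale, against 0.20 to 0.54 in the remaining 11 arrays, a measure that moves with RNA integrity. Correlations of this array with the others lay between 0.963 and 0.974, and those among the remaining arrays between 0.983 and 0.998, so results that it moves are given with and without it. Ifnar1 read 6.56 to 6.68 in double knockout, 7.76 to 8.01 in USP18ko, 6.24 to 6.59 in IFNARko and 7.44 to 8.21 in WT arrays. Usp18 read 3.50 to 3.71, 3.55 to 3.76, 3.53 to 3.67 and 4.04 to 4.36 in the same order of genotypes, low values on arrays whose signals ran from 2.36 to 13.81. Xist was high (10.17 to 11.34) in the 3 double knockout arrays and WT replicate 1 and low (4.98 to 5.69) in the other 8, so Xist separates the double knockout from the USP18ko and IFNARko arrays. The Y-linked Eif2s3y did not follow the same split. In the double knockout it was low in replicates 1 (3.05) and 3 (3.22) but 7.16 in replicate 2, close to the USP18ko arrays (7.26 to 8.25), so that replicate had a high signal of both genes. The mean log2 signal of 8 neuron markers lay between 9.84 and 10.65 across the 12 arrays, while that of 7 oligodendrocyte markers varied from 6.84 to 9.53 among the WT arrays.

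The first comparison, USP18ko against WT, concerns loss of Usp18 with the receptor gene intact. All 7 Gbp probe sets were higher in USP18ko brain, by log2 differences of 2.23 to 3.87. Each of the 5 genes passed the test with every one of its probe sets, and for each the 3 USP18ko arrays lay above the 3 WT arrays. Limma called 7 of 7 probe sets higher at an adjusted p under 0.05, where 0.968% of all 22626 probe sets were called higher. The groups did not overlap for 7 of 7, where 4.10% of all probe sets were higher and 5.41% lower without overlap. Adjusted p-values are from limma in 1 fit of all probe sets and arrays, with Benjamini-Hochberg adjustment.

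Probe set 1418240_at of Gbp2, a CaaX member needed for control of Toxoplasma in mice, had log2 signals of 8.31, 8.11 and 7.83 in USP18ko replicates 1, 2 and 3, against 4.47, 4.64 and 4.31 in WT replicates 1, 2 and 3. The lowest USP18ko array was thus well above the highest WT array. The difference was 3.61 (SE 0.44, 95% confidence interval 2.65 to 4.56, adjusted p = 7.18e-04, limma). The second Gbp2 probe set, 1435906_x_at, is of a kind that can also bind related transcripts. It had 8.71, 8.30 and 7.95 in USP18ko, against 4.45, 4.55 and 4.37 in WT, a difference of 3.87 (SE 0.53, adjusted p = 0.00193, limma). The 2 Gbp2 probe sets thus gave the same order of the USP18ko arrays, with replicate 1 highest.

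Gbp2b, the neighbour of Gbp2, had 7.39, 7.15 and 8.30 in USP18ko, against 4.13, 4.14 and 4.09 in WT. Here USP18ko replicate 3 stood highest, and the WT arrays had an SD of 0.025. The difference was 3.50 (SE 0.22, 95% confidence interval 3.01 to 3.98, adjusted p = 2.13e-06, limma). Gbp3 had 9.20, 8.11 and 8.35 in USP18ko, against 5.37, 5.45 and 5.29 in WT, a difference of 3.18 (SE 0.46, adjusted p = 0.00298, limma). As for Gbp2, replicate 1 was the highest of the USP18ko arrays for Gbp3.

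Gbp6, the member on chromosome 5, had 7.67, 7.47 and 8.26 in USP18ko, against 4.25, 4.41 and 4.24 in WT. Its difference of 3.50 (SE 0.18, 95% confidence interval 3.10 to 3.90, adjusted p = 4.09e-07, limma) had the smallest p of the 7. Gbp7 was measured by a pair of probe sets that moved alike. Probe set 1425156_at had 9.05, 8.78 and 9.20 in USP18ko, against 6.84, 6.79 and 6.69 in WT, a difference of 2.23 (SE 0.22, adjusted p = 9.58e-05, limma). Probe set 1434380_at had 8.92, 8.61 and 9.20 in USP18ko, against 6.34, 6.49 and 6.35 in WT, a difference of 2.52 (SE 0.32, adjusted p = 0.00110, limma). For Gbp2b, Gbp6 and both Gbp7 probe sets replicate 3 was the highest USP18ko array and replicate 2 the lowest.

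**Figure D1:**
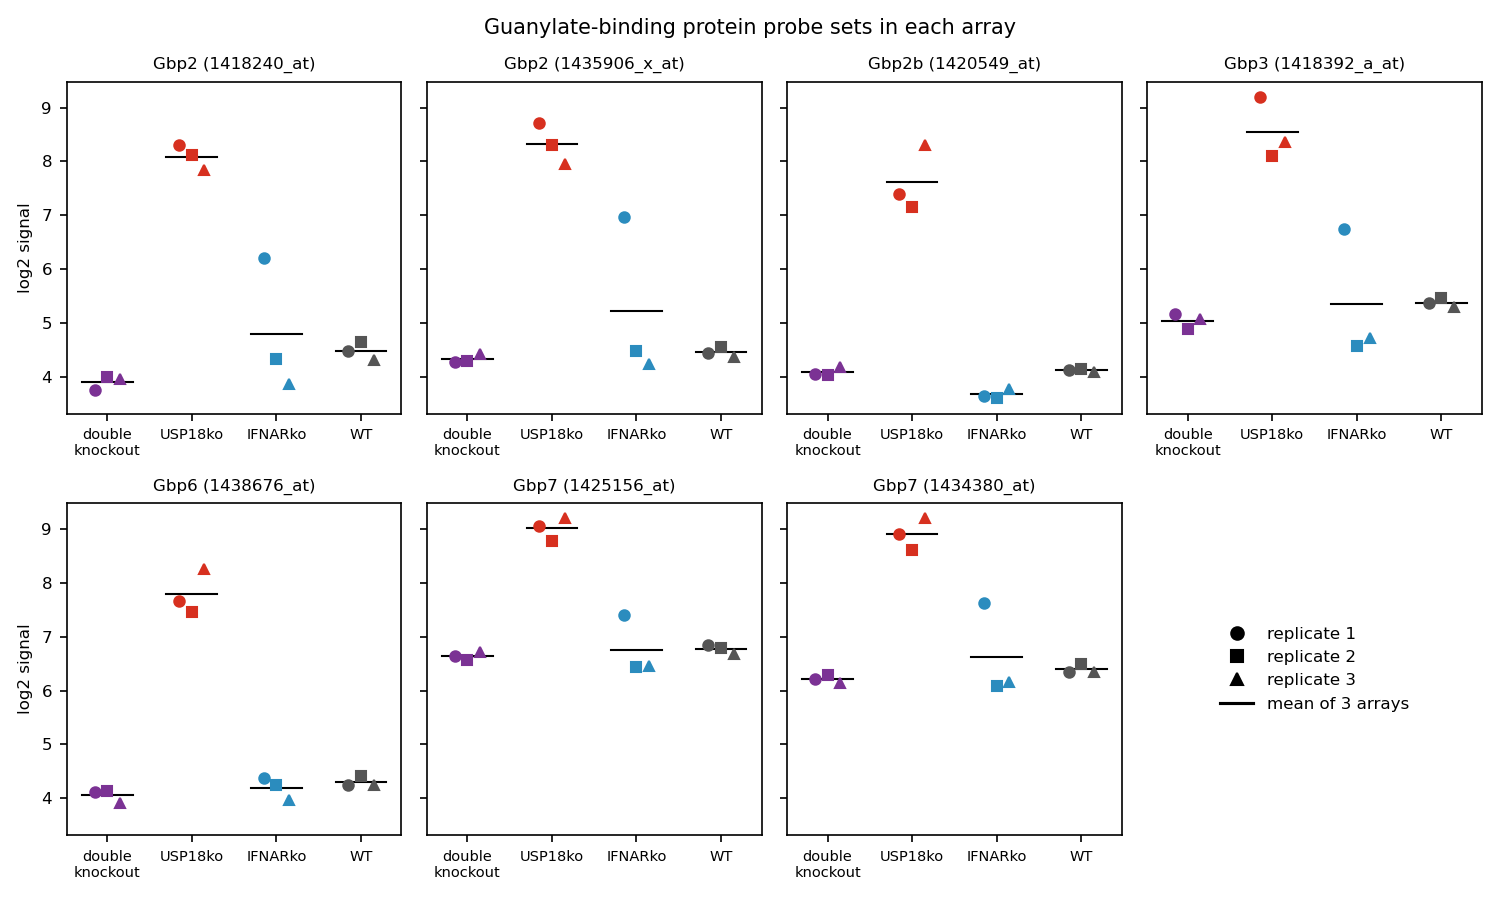
Log2 signal (vertical axis) of each of the 7 Gbp probe sets in every array, by genotype, with replicate numbers as symbols and the mean of 3 arrays as a line. The USP18ko arrays lie above all WT and double knockout arrays in every panel, and IFNARko replicate 1 lies above the other IFNARko arrays for Gbp2, Gbp3 and Gbp7 but not for Gbp2b.

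No detection calls were used here, and the WT signals of Gbp2, Gbp2b and Gbp6 lie in the low part of the range, so folds are left out. In whole brain, more cells of a type and more RNA per cell cannot be told apart. Of 9 microglia markers 2 rose in USP18ko, Aif1 by 1.93 (adjusted p = 0.00447) and Itgam by 0.80 (adjusted p = 0.0153), by limma. The Itgam call was lost with the replicate block (0.80), with only 2 groups (0.80) and without USP18ko replicate 2 (0.64) or 3 (0.82) or WT replicate 2 (0.74) or 3 (0.77). The mean log2 signal of the 9 markers was 7.32 to 7.94 in the USP18ko arrays and 6.50 to 7.44 in the WT arrays, so the groups overlapped. Their part in the Gbp result was not tested. Of 9 T and NK lymphocyte markers 0 were called in this comparison, with a median log2 difference of 0.03, and with array weights 1 was called. Called counts were 0 of 9 for astrocyte, 0 of 7 for oligodendrocyte, 0 of 8 for neuron, 0 of 8 for endothelial and 0 of 5 for choroid plexus markers. Over all probe sets 0.968% were called higher and 0.00884% lower, so a count of 0 does not set a list apart. With array weights the counts were 3, 3, 1, 2 and 1 in the same order of lists. No share of all probe sets called was computed for that setting, so the array-weight counts in this paragraph have no background. Astrocyte and endothelial markers had 1 call each without WT replicate 2 and WT replicate 1, respectively. Of 7 monocyte and neutrophil markers 1 was called, Plac8 (3.35, adjusted p = 1.08e-04, limma). That count was 5 with array weights, 3 without double knockout replicate 3 and 2 with only the 2 groups. The filter on low signal left Plac8 out before the test, so the count of 0 there is not a lost call. Median log2 differences were 0.60 for the microglia and 0.56 for the monocyte and neutrophil list, against -0.02 over all probe sets. For the other cell type lists the medians lay between -0.27 (choroid plexus) and 0.05 (astrocytes).

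The SE of several Gbp probe sets in this comparison was set largely by an array outside it, since the fit shares 1 spread over all 12 arrays. Without IFNARko replicate 1 the difference of Gbp2 1418240_at stayed at 3.61 with SE 0.15 and that of 1435906_x_at at 3.87 with SE 0.16. The SE of Gbp3 was then 0.21 and that of Gbp7 1434380_at 0.13, and their differences were likewise the same values as above. All 7 calls were kept without each of the 12 arrays in turn, with differences between 2.14 and 4.05. The order of the probe sets by difference moved with the arrays used.

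The double knockout was set against USP18ko for the removal of the receptor gene on a background without Usp18. All 7 Gbp probe sets were lower in the double knockout, by 2.37 to 4.18 on the log2 scale. Limma called 7 of 7 lower, where 1.16% of all probe sets were called lower and 0.0309% higher. The groups did not overlap for 7 of 7, where 7.12% of all probe sets were lower and 9.42% higher without overlap.

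Gbp2 1418240_at had 3.75, 3.996 and 3.95 in the double knockout arrays, which is below the lowest USP18ko array (7.83). It fell by 4.18 (SE 0.44, 95% confidence interval -5.14 to -3.23, adjusted p = 1.62e-04, limma). Gbp2 1435906_x_at, at 4.27, 4.29 and 4.43 in the double knockout, fell by 3.99 (SE 0.53, adjusted p = 0.00127, limma). Both probe sets thus lay near the WT signals given above. Gbp2b had 4.05, 4.02 and 4.18 in the double knockout and fell by 3.53 (SE 0.22, adjusted p = 1.57e-06, limma). Gbp3 had 5.16, 4.88 and 5.08 and fell by 3.51 (SE 0.46, adjusted p = 0.00117, limma). The Gbp3 signal in the double knockout did not reach the lowest USP18ko array (8.11) in any replicate. Gbp6 had 4.12, 4.13 and 3.90 and fell by 3.75 (SE 0.18, adjusted p = 1.87e-07, limma). Gbp7 1425156_at had 6.64, 6.57 and 6.71 and fell by 2.37 (SE 0.22, adjusted p = 4.67e-05, limma). Gbp7 1434380_at had 6.21, 6.30 and 6.14 and fell by 2.70 (SE 0.32, adjusted p = 5.29e-04, limma). The replicates of the double knockout were close to each other, with a median range of 0.16 over the 7 probe sets, equal to that of all probe sets (0.16). In the USP18ko arrays the median range of the Gbp probe sets was 0.76, against 0.22 over all probe sets.

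Set against WT, the double knockout showed 0 of 7 Gbp probe sets called by limma, where 0% of all probe sets were called in either direction. An unadjusted p under 0.05 was found for 0 of 7 and for 4.2% of all probe sets, so this count does not set the Gbp probe sets apart. Differences ran from -0.57 for Gbp2 1418240_at to -0.03 for Gbp2b, and all 7 were negative. The second Gbp2 probe set, 1435906_x_at, differed by -0.13 (95% confidence interval -1.29 to 1.03), and its double knockout arrays overlapped the WT arrays. The 2 Gbp2 probe sets thus did not give the same size of difference. The 95% confidence interval was -1.53 to 0.38 for Gbp2 1418240_at, -0.52 to 0.45 for Gbp2b and -0.64 to 0.15 for Gbp6, in the fit of all 12 arrays. IFNARko replicate 1 widens these intervals through the shared spread. Without it the difference of Gbp2 1418240_at was -0.57 with SE 0.15 in place of 0.44 (adjusted p = 0.316, limma), that of Gbp3 -0.33 with SE 0.21 and that of Gbp6 -0.25 with SE 0.17. For 4 of the 7, the double knockout arrays all lay below the WT arrays, where 9.68% of all probe sets did and 6.18% lay above. With array weights, which reduce the influence of arrays that deviate, 1 of 7 was called lower, Gbp2 1418240_at (-0.44, adjusted p = 0.00854, limma). The other Gbp2 probe set, 1435906_x_at, had an adjusted p of 0.718 or more by limma in every alternative. The share of all probe sets called with array weights was not computed, so the call of 1418240_at has no background to be set against.

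**Figure D2:**
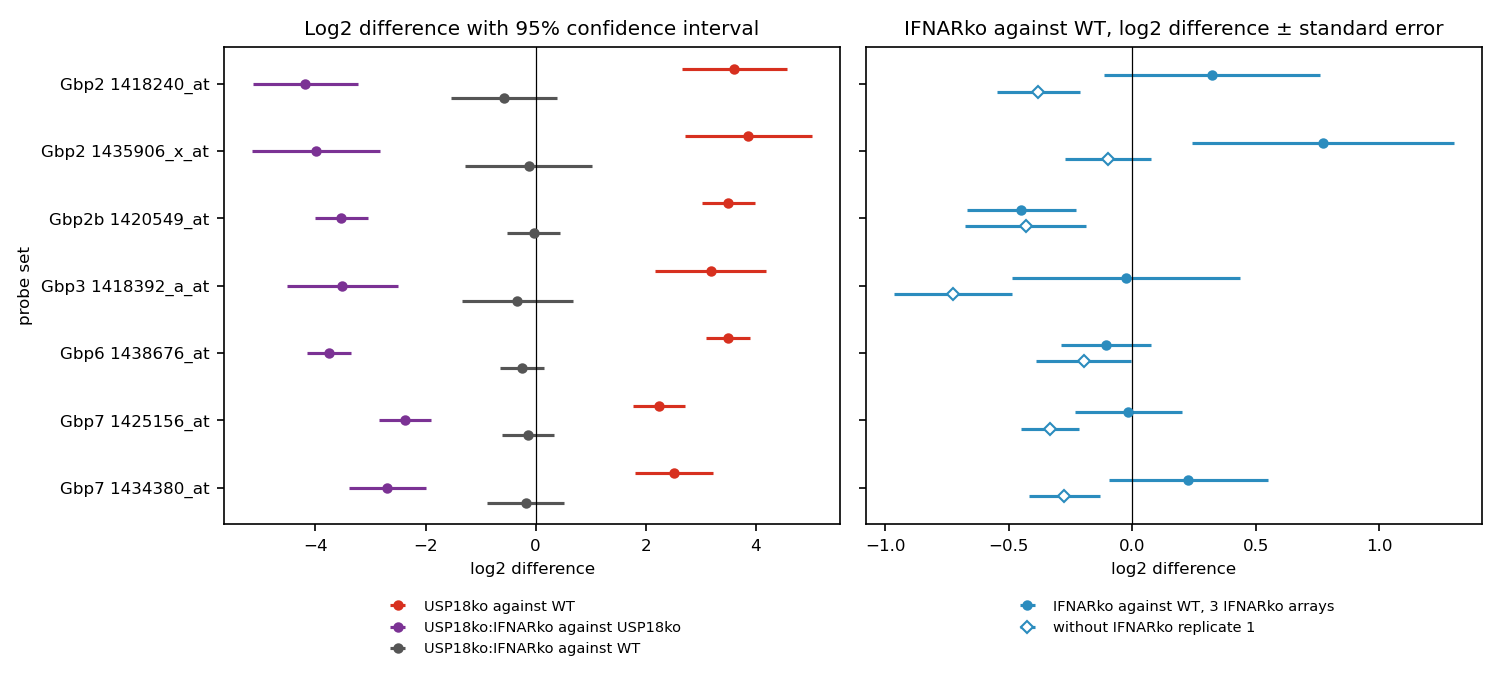
Log2 differences (horizontal axis) of the 7 Gbp probe sets. The left panel shows USP18ko against WT, the double knockout against USP18ko and the double knockout against WT with 95% confidence intervals, and the right panel shows IFNARko against WT with standard errors, with 3 IFNARko arrays and without replicate 1. The first 2 comparisons lie on opposite sides of 0 with intervals that do not reach it, the third has intervals that all include 0, and in the right panel all 7 values are negative without replicate 1.

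The interaction asks whether the Usp18 knockout had the same effect with and without Ifnar1. The effect was smaller without Ifnar1 for 7 of 7 Gbp probe sets, where 0.685% of all probe sets were called in that direction and 0.0177% in the other. Gbp6 differed by -3.64 (SE 0.26, adjusted p = 1.52e-05, limma) and Gbp2b by -3.08 (SE 0.31, adjusted p = 2.51e-04, limma). The Gbp2 probe sets differed by -4.51 and -4.76 (adjusted p = 0.00319 and 0.00928), and the Gbp7 probe sets by -2.36 and -2.92 (adjusted p = 0.00208 and 0.00844), by limma. Without IFNARko replicate 1 these were -3.80 and -3.89 for Gbp2, -2.04 and -2.42 for Gbp7, -3.55 for Gbp6 and -3.10 for Gbp2b, with adjusted p-values of 3.36e-04 or less by limma. Gbp3 differed by -3.49 (SE 0.65, adjusted p = 0.0297, limma). This Gbp3 call was lost without double knockout replicate 1 (-3.55), 2 (-3.41) or 3 (-3.51), USP18ko replicate 1 (-3.17) or 3 (-3.59), or WT replicate 1 (-3.49), 2 (-3.53) or 3 (-3.45). Without IFNARko replicate 1 it was -2.79 (SE 0.32, adjusted p = 6.76e-04, limma). With the log2 signal of Eif2s3y as a covariate, which does not follow Xist in double knockout replicate 2, 3 of 7 probe sets were called (Gbp2b, Gbp6 and Gbp7 1425156_at), and Gbp2 (-4.28 and -4.62), Gbp3 (-3.53) and Gbp7 1434380_at (-2.73) were not.

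IFNARko was compared with WT for loss of the receptor gene alone. Among the IFNARko arrays the Gbp genes split. In replicate 1 Gbp2, Gbp3 and Gbp7 were well above the other 2 IFNARko arrays and above all WT and double knockout arrays, while Gbp2b lay between the other IFNARko arrays and Gbp6 lay just above replicate 2. Gbp2 1418240_at had 6.20, 4.33 and 3.86 in IFNARko replicates 1, 2 and 3, and 1435906_x_at had 6.97, 4.47 and 4.24. Gbp3 had 6.75, 4.57 and 4.72. Replicates 2 and 3 lay below the WT arrays for Gbp3, whose lowest WT value was 5.29. Gbp7 had 7.40, 6.43 and 6.45 by 1425156_at and 7.63, 6.08 and 6.16 by 1434380_at. Gbp2b had 3.63, 3.60 and 3.78, all 3 below the WT arrays, where 5.90% of all probe sets were lower and 5.47% higher without overlap. Gbp6 had 4.37, 4.24 and 3.96 and overlapped the WT arrays.

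Replicate 1 minus the mean of replicates 2 and 3 was 2.61 and 2.11 for the 2 Gbp2 probe sets, 2.11 for Gbp3, 1.51 and 0.95 for the 2 Gbp7 probe sets, 0.27 for Gbp6 and -0.05 for Gbp2b. The median was 1.51 over the 7 probe sets and 0.11 over all 22626. The 2 Gbp2 probe sets and Gbp3 ranked 2, 3 and 4 of 22626 by this difference, and those of Gbp7 ranked 26 and 334. A difference of at least 1 was seen for 4 of 7 Gbp probe sets and for 1.16% of all probe sets, and a difference of at most -1 for 0 of 7 and for 5.80%. Replicate 1 exceeded the other 8 arrays outside USP18ko for 5 of 7 Gbp probe sets, and for 35.6% of all probe sets. Replicate 1 minus the mean of the USP18ko arrays was -1.88 and -1.35 for Gbp2, -1.80 for Gbp3, -1.61 and -1.28 for Gbp7, -3.43 for Gbp6 and -3.98 for Gbp2b. The range among IFNARko arrays was 2.34 and 2.73 for Gbp2, 2.18 for Gbp3, 0.97 and 1.55 for Gbp7, 0.41 for Gbp6 and 0.18 for Gbp2b. Its median over the Gbp probe sets was 1.55, against 0.38 over all probe sets. For 5 of 7 Gbp probe sets, as for 49.6% of all probe sets, the widest range of the 4 genotypes was among the IFNARko arrays.

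**Figure D3:**
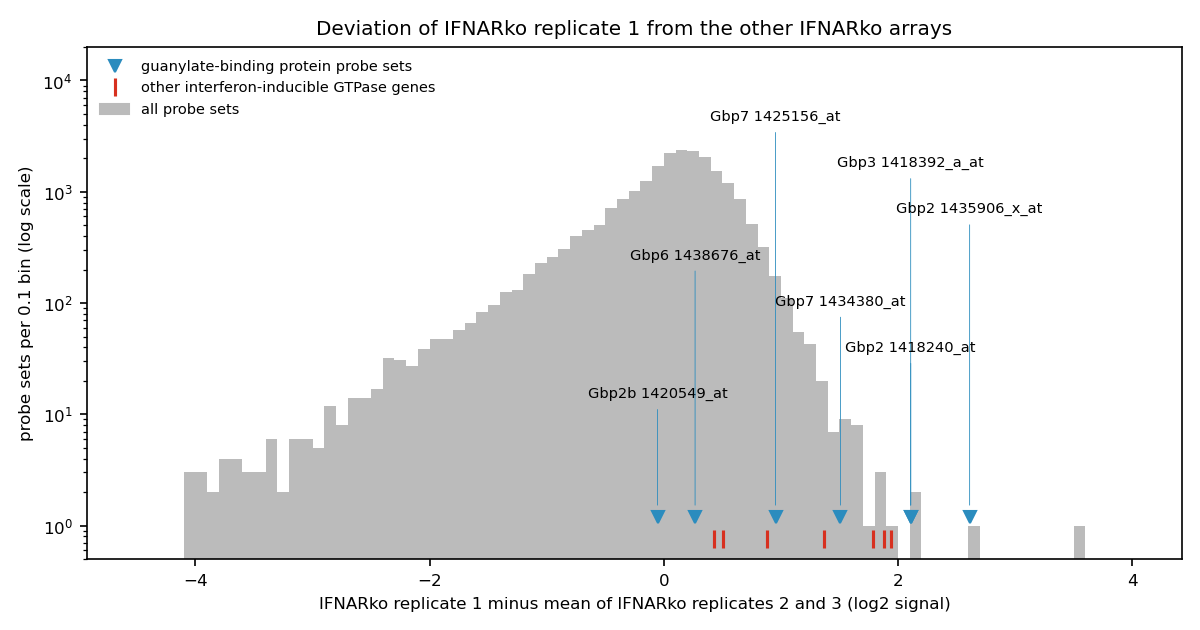
Number of probe sets (vertical axis, log scale) by the difference between IFNARko replicate 1 and the mean of IFNARko replicates 2 and 3 in log2 signal (horizontal axis), with triangles for the 7 Gbp probe sets and ticks for 7 other interferon-inducible GTPase genes. Gbp2 and Gbp3 lie at 2.11 to 2.61 in the far upper tail, whereas Gbp2b and Gbp6 lie in the bulk.

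Other gene groups were read in the same 3 arrays. Of 7 other interferon-inducible GTPase genes with a value, 4 were at least 1 higher in replicate 1 (Igtp by 1.94, Irgm2 by 1.88, Iigp1 by 1.79 and Irgm1 by 1.37). The mean log2 signal of the 7 was 6.05 in replicate 1 against 4.78 and 4.80 in replicates 2 and 3. Of 9 T and NK lymphocyte markers 0 were at least 1 higher, with means of 4.75, 4.46 and 4.39 in replicates 1, 2 and 3, and of 9 microglia markers 0 were, with means of 6.94, 6.73 and 6.89. Of 7 monocyte and neutrophil markers 1 was, Plac8 by 1.27, with means of 4.86, 4.19 and 4.38, and of 8 inflammasome genes 1 was, Casp4 by 1.07, with means of 6.29, 5.73 and 5.72. Oligodendrocyte markers had a median difference of -0.61, with means of 7.42, 8.06 and 7.87. Of 13 interferon signalling and transcription genes 0 were at least 1 higher in replicate 1 and 1 was at least 1 lower. Their differences ran from -1.18 (Stat2) to 0.61 (Irf1), with means of 6.79, 6.77 and 6.77 in replicates 1, 2 and 3. Ifng, the interferon-gamma gene of that list, read 3.50, 3.31 and 3.23, low values on these arrays. The part of interferon-gamma was not tested. The mean of 8 neuron markers was lower in replicate 1, at 9.84 against 10.65 and 10.59. The part of RNA quality and of other cell types in the Gbp signals of this array was not tested.

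With all 3 IFNARko arrays, 0 of 7 Gbp probe sets were called against WT by limma, where 0.00884% of all probe sets were called in each direction. The unadjusted p was under 0.05 for 0 of 7 and for 9.17% of all probe sets, so this count does not set the Gbp probe sets apart. Differences were 0.32 (SE 0.44) and 0.77 (SE 0.53) for Gbp2, -0.45 (SE 0.22) for Gbp2b, -0.02 (SE 0.46) for Gbp3, -0.11 (SE 0.18) for Gbp6, and -0.02 (SE 0.22) and 0.23 (SE 0.32) for Gbp7. Without replicate 1, all 7 differences were negative and 0 of 7 were called, where 0.0177% of all probe sets were called higher and 0.0177% lower. They were then -0.38 (SE 0.17) and -0.10 (SE 0.18) for Gbp2, -0.43 (SE 0.25) for Gbp2b, -0.73 (SE 0.24, adjusted p = 0.301, limma) for Gbp3, -0.20 (SE 0.19) for Gbp6, and -0.33 (SE 0.12) and -0.28 (SE 0.14) for Gbp7. The sign of the Gbp2 difference and of that of Gbp7 1434380_at therefore rested on 1 array. With array weights 6 of 7 were called lower than WT, all but Gbp2 1435906_x_at, with differences of -0.57 to -0.19 among the 6. The iteration for those weights stopped before it reached its tolerance. No share of all probe sets called was computed for that setting, so the 6 calls cannot be read as particular to the Gbp genes.

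The double knockout was also set against IFNARko, the effect of Usp18 loss where the receptor gene is absent in both groups. Limma called 0 of 7 Gbp probe sets, where 0% of all probe sets were called in either direction. At an unadjusted p under 0.05 there were 0 of 7 and 8.35% of all probe sets, so this count does not set the Gbp probe sets apart. Differences were -0.90 and -0.90 for Gbp2 (95% confidence intervals -1.85 to 0.06 and -2.06 to 0.26), 0.42 for Gbp2b (-0.07 to 0.90), -0.31 for Gbp3, -0.14 for Gbp6, and -0.12 and -0.41 for Gbp7. Without IFNARko replicate 1 they were -0.19 and -0.03 for Gbp2, 0.40 for Gbp2b, 0.39 for Gbp3, -0.05 for Gbp6, and 0.20 and 0.10 for Gbp7, with 0 of 7 called, where 0.00442% of all probe sets were called higher and 0% lower. Gbp2b was the 1 probe set whose double knockout arrays all lay above the IFNARko arrays, where 8.61% of all probe sets did, and 10.9% lay below. By mean signal the order of genotypes thus differed between genes. USP18ko was highest for all 7 probe sets, while the lowest genotype was the double knockout for 6 of them and IFNARko for 1, Gbp2b. Without IFNARko replicate 1 the double knockout was lowest for 3 and IFNARko for 4, namely Gbp2b, Gbp3 and both Gbp7 probe sets. With equal array weights 0 of 7 probe sets were called between any 2 of the 3 genotypes below USP18ko, and array weights called those named above.

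The array held 2 probe sets of other family members. Gbp8 had 3.54, 4.13 and 4.22 in USP18ko, against 3.08, 3.09 and 2.85 in WT, and rose by 0.96 (SE 0.17, adjusted p = 0.0122, limma). In the double knockout against USP18ko its difference was -0.99 (adjusted p = 0.00857, limma). The Gbp8 call against WT was lost without USP18ko replicate 2 (0.87) or 3 (0.83) or WT replicate 3 (0.88), and with only these 2 groups (0.96). A probe set listed with both Gbp8 and Gbp4 read 4.95 ± 0.06 in USP18ko and 4.98 ± 0.08 in WT (SD, n = 3 each) and was not called (-0.03, adjusted p = 1.00, limma).

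Lists of genes that act with guanylate-binding proteins were read beside them. The 7 other interferon-inducible GTPase genes with a value had a list median of 2.76 in USP18ko against WT, where the median over all probe sets was -0.02. Of these genes 6 rose in USP18ko, where 0.968% of all probe sets were called higher. Among them were the immunity-related GTPase genes Iigp1 (4.64, adjusted p = 2.12e-05), Ifi47 (2.84, adjusted p = 1.33e-05), Irgm1 (2.76, adjusted p = 2.92e-04) and Igtp (3.52, adjusted p = 3.85e-04), by limma. In the double knockout 7 of 7 were lower than in USP18ko, with a median of -3.10, where 1.16% of all probe sets were called lower. Of 13 interferon signalling and transcription genes 2 rose in USP18ko, the transcription factor genes Irf9 (0.88, adjusted p = 0.00172) and Irf8 (0.96, adjusted p = 0.00213), by limma, with a list median of 0.18. In the double knockout 3 of these 13 were lower than in USP18ko. Of 8 inflammasome and pyroptosis genes 1 rose, Casp4, the intracellular sensor of lipopolysaccharide (1.26, adjusted p = 0.0250, limma). That call was lost without USP18ko replicate 1 (1.30), 2 (1.34) or 3 (1.15) or WT replicate 1 (1.34), 2 (1.21) or 3 (1.24), and with the Eif2s3y covariate (1.26).

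The machinery that places or anchors the GTPases showed 0 calls by limma in USP18ko against WT. Over all probe sets 0.968% were called higher and 0.00884% lower, so 0 calls do not set lists of this size apart. The median difference over all probe sets was -0.02. Of 10 genes of ATG8 conjugation, which mouse GTPases of these families need for loading onto vacuoles, none passed, with a list median of 0.00. Their 2 smallest p-values belonged to Atg5 (-0.19, adjusted p = 1.00) and Atg16l1 (-0.16, adjusted p = 1.00). Of 5 genes of CaaX prenylation and processing none passed either, with a median of -0.02, and Fnta (-0.11) and Rce1 (0.03) had the smallest p-values.

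**Figure D4:**
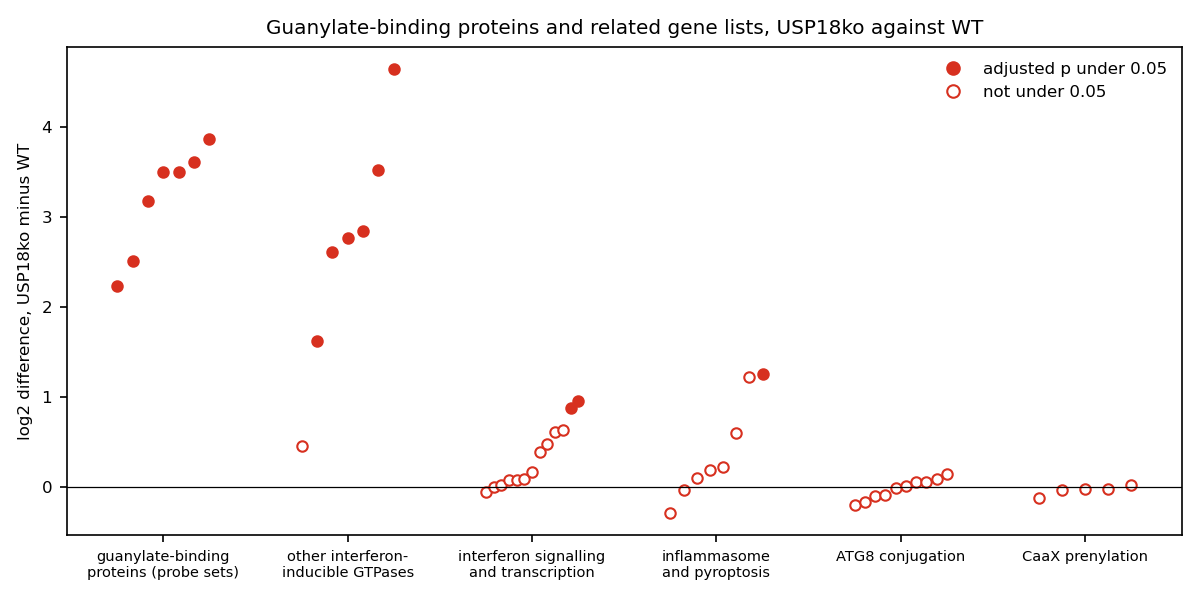
Log2 difference between USP18ko and WT (vertical axis) for the 7 Gbp probe sets and for the genes of 5 lists (horizontal axis), filled where the adjusted p was under 0.05. The Gbp probe sets lie between 2.23 and 3.87 and 6 of 7 other GTPase genes are filled, while the ATG8 and CaaX lists lie near 0 with none filled.

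The genes most like the mean Gbp profile were found among 12387 genes by the root mean square deviation, over the 12 arrays, of differences from the WT mean. These were Ifi47 (0.252), Plac8 (0.257), Igtp (0.278), Irgm1 (0.295) and AW112010 (0.326), against a median deviation of 1.67 log2 units over all genes compared. Of these 5, 3 are immunity-related GTPase genes. All 12 points of each profile come from the same arrays, and the USP18ko arrays weigh most. Because the genes were chosen for closeness over these arrays, their nearness in the values below follows from that choice. In USP18ko the mean Gbp profile lay 3.26 above WT, and the 5 genes lay 2.76 to 3.52 above WT. In IFNARko replicate 1 the mean Gbp profile lay 0.82 above WT and these genes 0.34 to 1.51.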

How the data were processed

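The authors deposited log2 signals per probe set, and the R package affy is named per the submitters' processing notes. Its version and the background, normalization and probe summary steps were among the details not given in the sources used here. Base 2 was taken from the range of the signals, 2.36 to 13.81 with array medians of 6.98 to 7.07. From 22690 rows, 64 controls were left out, and 22626 probe sets (20380 with 1 gene, 691 with several, 1555 not listed in the platform annotation) were each tested by themselves with limma 3.58.1 in R 4.3.3 (lmFit, contrasts.fit, eBayes), genotype as the only term, 8 residual and 3.79 prior degrees of freedom. Tests were two-sided with Benjamini-Hochberg adjustment over all probe sets and a threshold of 0.05. With 3 arrays per group an exact permutation p is never under 0.1, and the number of arrays limits the precision. Fits were tested on simulated data. Same-numbered arrays of the double knockout and USP18ko deviated together weakly (correlations 0.10, 0.26 and 0.15 across probe sets, from the data, as the labels give only the number), and the replicate block is given among the alternatives.

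Entrez identifiers of all 5 Gbp genes matched the reference table. List genes were represented by their brightest probe set with 1 gene. Named are every Gbp probe set, up to 4 called genes per list by smallest p (or 2 where none was called), and the 5 genes with the most similar profile. Array checks, cell type markers and a few interferon-induced genes, chosen once their values were known, fall outside this rule. The Gbp genes, lists and tests were chosen with earlier results of these data known.

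Alternatives were 1 probe set per gene, probe sets with 1 gene symbol only, quantile normalization, median centring, a filter at the 40th percentile of mean signal, array weights, a trended and robust variance, only the 2 groups compared, a replicate block, an Eif2s3y covariate and each array left out in turn.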

Additional observations from a re-analysis of the deposited data

Results flagged for a closer look

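For the 7 Gbp probe sets the effect of the Usp18 knockout differed between genotypes without and with intact Ifnar1, by the interaction term of the limma fit. The effect without Ifnar1 minus that with it was -4.51 for Gbp2 1418240_at, -4.76 for Gbp2 1435906_x_at, -3.08 for Gbp2b, -3.49 for Gbp3, -3.64 for Gbp6, -2.36 for Gbp7 1425156_at and -2.92 for Gbp7 1434380_at. The Usp18 effect itself was -0.90 without and 3.61 with Ifnar1 for Gbp2 1418240_at (-0.19 without Ifnar1 when IFNARko replicate 1 is left out), and -0.14 without and 3.50 with Ifnar1 for Gbp6 (-0.05 without Ifnar1 when that array is left out). The double knockout arrays had a high Xist signal and the USP18ko and IFNARko arrays did not, and the part of sex in the interaction was not tested apart from the covariate fit. That fit uses Eif2s3y, which was high (7.16) in double knockout replicate 2 although its Xist was high too (10.34), so it does not follow the Xist split.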

How the results depend on the processing

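All 147 repeats of a Gbp probe set under an alternative kept their direction and their call for USP18ko against WT, and likewise for the double knockout against USP18ko. With only probe sets above the 40th percentile of mean signal, 2 of 2 remaining Gbp probe sets (both of Gbp7) were called in USP18ko against WT, 2 in the double knockout against USP18ko and 2 in the interaction, since the other 5 were left out by that filter. With array weights 1 was called in the double knockout against WT and 6 in IFNARko against WT, with no share of all probe sets computed beside them. With the Eif2s3y covariate 3 were called in the interaction. Over all alternatives, called genes numbered 3 to 7 of 7 other GTPase genes, 1 to 7 of 13 signalling genes, 0 to 4 of 8 inflammasome genes, 1 to 6 of 9 microglia markers and 0 to 5 of 7 monocyte and neutrophil markers. The lowest GTPase, signalling and monocyte and neutrophil counts came from the filter on low signal. It left out genes before the test, among them Iigp1, Irf8, Casp4, Itgam and Plac8, so a lower count there need not mean a lost call. The highest signalling, inflammasome, microglia and monocyte and neutrophil counts came with array weights, where no share of all probe sets was computed. The median SD of the Gbp probe sets among IFNARko arrays was 0.87, and 0.13 to 1.10 with 1 IFNARko array left out, lowest without replicate 1.

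Differences that were not called with all arrays and equal weights changed sign as follows. In the double knockout against IFNARko, array weights gave 0.047 for Gbp2 1435906_x_at, 0.34 for Gbp3, 0.077 for Gbp6 and 0.18 and 0.045 for Gbp7. With 1 array left out, Gbp3 ran from -0.70 to 0.39, Gbp7 1425156_at from -0.29 to 0.20 and Gbp7 1434380_at from -0.68 to 0.10, each highest without IFNARko replicate 1. In the double knockout against WT, quantile normalization gave 9.75e-04 for Gbp2b. In IFNARko against WT, Gbp3 was 0.063 with quantile normalization, Gbp2 was -0.41 and -0.10 and Gbp7 1434380_at -0.19 with array weights (called lower there but for the -0.10), and Gbp7 1425156_at was 0.010 with the Eif2s3y covariate. There, with 1 array left out, the Gbp2 probe sets ran from -0.38 to 0.79 and from -0.10 to 1.26, Gbp3 from -0.73 to 0.36, Gbp6 from -0.20 to 0.0072, and the Gbp7 probe sets from -0.33 to 0.15 and from -0.28 to 0.50, each lowest without IFNARko replicate 1. In USP18ko against WT, array weights gave 0.047 for Atg16l1 and 0.090 for Fnta, and Rce1 ran from -0.032 to 0.094 with 1 array left out, lowest without WT replicate 1. The causes were not tested.

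Same-numbered arrays had every correlation over 0.1 in 1 of 6 pairs of genotypes, the double knockout and USP18ko. In the other pairs of genotypes 15 correlations ran from -0.26 to 0.23, with 3 over 0.1, and the numbers were not taken as pairs there. With the replicate block 7 Gbp probe sets were called in USP18ko against WT, 7 in the double knockout against USP18ko, 7 in the interaction and 0 in each of the other 3 comparisons, as without it. Without detection calls, low signals cannot be set against background.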

Other observations

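The probe set with the largest excess in IFNARko replicate 1 over the other IFNARko arrays belonged to the immunity-related GTPase genes Tgtp1 and Tgtp2, listed together, at 7.71 in replicate 1 against 4.05 and 4.38 in replicates 2 and 3. Among the 9 probe sets with the largest excess were 3 of Gbp2 and Gbp3, 4 of immunity-related GTPase genes (Tgtp2 and Tgtp1, Igtp, Irgm2 and Iigp1) and 2 that are unnamed here. A few other interferon-induced genes were named after their values were seen, so they do not show how such genes behave as a set. Irf7, Oasl2 and Ifit3 were 0.10, 0.12 and 0.14 higher in replicate 1 than the mean of replicates 2 and 3, Ifit1 0.66 and Rsad2 0.84. The same difference was 0.27 for Gbp6 and -0.05 for Gbp2b, below Ifit1 and Rsad2, and larger for the probe sets of Gbp2, Gbp3 and Gbp7. In USP18ko Irf7, Oasl2, Ifit3, Ifit1 and Rsad2 stood 3.40, 3.65, 4.19, 4.87 and 4.06 higher than in WT. In replicate 1 Ifit1 read 3.82, against a WT mean of 3.71, and Rsad2 read 6.46, against a WT mean of 6.57. These are single-array values with no test.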
